A study of Mus musculus with 78 samples.

Results

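The libraries labelled as Ndel1 heterozygotes of mixed background at postnatal day 14 (P14) were 3 brain samples of the 78 in the series, and they were set against 3 P14 brain samples of the wild type called mixed A. Their labels alone define these 6 samples. The Ndel1 protein binds LIS1, the product of Pafah1b1, and the motor protein dynein. LIS1 and NDEL1 regulate dynein on microtubules, and in the developing brain they act in the movement of the nucleus and the centrosome of migrating neurons. By P14 most neurons of the forebrain have reached their place, while myelination, synapse formation and the last neuron production of the cerebellum still go on.

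The series asked whether mutations in members of the LIS1 pathway change gene expression in the developing brain in similar or in distinct ways. The libraries compared first carry the label Ndel1 ko/+ (1 null allele of Ndel1 and 1 wild-type allele) in a mixed background, and are called mix-labelled here. Their reference is the mixed A wild type. Of the other wild types of the same age, the inbred one carries wt129s6 in its label, and the remaining one is called mixed B. The further P14 groups used here are another Ndel1 ko/+, whose label names no background, an Ndel1 ko/cko, which carries a null and a conditional allele, and a Lis1 ko/cko and a Lis1 ko/+, with the same kinds of allele in Lis1 (Pafah1b1). All 8 P14 groups share the fit. The labels name neither the strains behind the mixed backgrounds nor the Cre driver, and do not say whether a sample is 1 animal or a pool. Each group has 3 arrays, described as biological replicates. All values are log2 expression values per probe set, which the authors summarized by RMA, so that a difference of 1 is a 2-fold difference, and the precision is limited by the number of arrays.

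Markers of brain cells were present in all 6 arrays compared. Snap25 of nerve terminals lay between 12.37 and 12.58 in the mix-labelled and at 12.59 in each mixed A library. Of the red cell genes, Alas2, of heme synthesis, was at 7.30 to 7.76 in the mix-labelled and at 7.32 to 8.01 in the mixed A libraries, and Hba-a1, in a probe set under the filter on low values, did not exceed 4.42 in any of them. Mixed A replicate 1 stood apart in some glial genes: P2ry12 of microglia was at 8.97, 9.09 and 8.98 in the mix-labelled libraries, against 7.97 in that one and 9.73 and 9.68 in the other mixed A libraries. Aqp4 of astrocytes was between 9.84 and 10.09 in the mix-labelled libraries, against 9.62 in mixed A replicate 1 and 10.63 and 10.66 in the others of its group. The mean of the 18 astrocyte genes ran from 10.69 to 10.73 in the mix-labelled and from 10.63 to 10.65 in the mixed A libraries. The difference between the 3' and 5' probe sets of beta-actin, a measure of RNA integrity, was 0.60 to 0.64 in the mix-labelled libraries and 0.96, 0.50 and 0.55 in mixed A replicates 1 to 3. No 2 arrays were identical, and the highest correlation between P14 arrays was 0.997.

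Ndel1 was not lower in the libraries labelled Ndel1 ko/+ of mixed background. Its level in probe set 1422568_at was 10.54, 10.58 and 10.51 in the 3 mix-labelled arrays, against 10.44, 10.33 and 10.42 in mixed A. Every mix-labelled array lay above every mixed A array, while arrays of these groups did not overlap for 24.1% of all genes tested. The difference was +0.15 ± 0.06 (moderated SE), and it did not pass the test (limma, unadjusted p = 0.021, adjusted p = 0.388). In the inbred wild type Ndel1 was at 10.23, 10.42 and 10.35, and in mixed B at 10.32, 10.29 and 10.35. The other group labelled Ndel1 ko/+ had 9.98, 10.00 and 10.04, and Ndel1 ko/cko had 10.13, 10.00 and 9.88. The mix-labelled arrays were therefore the highest of these 6 groups and did not overlap with any of the others. Against the other Ndel1 ko/+ group the mix-labelled level was higher by 0.54 ± 0.06 (limma, adjusted p = 2.39e-07). Between the same groups 51.6% of all genes tested were called, so this call is not particular to Ndel1. A second Ndel1 probe set, 1424893_at, was dim, with group means of 3.78 in the mix-labelled and 4.41 in mixed A arrays, and lay under the filter on low values. At birth (P0), 1422568_at was also not lower in an inbred Ndel1 ko/+ group, with a mean of 10.06 against 9.91 in inbred wild type. The other Ndel1 ko/+ groups were lower than mixed B, at 9.33 against 9.74 at birth and 9.45 against 9.91 at E14 (embryonic day 14). Ndel1 ko/cko was at 9.56 at birth and 9.82 at E14. Where the probes lie relative to the deleted part of the gene was not tested.

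**Figure D1:**
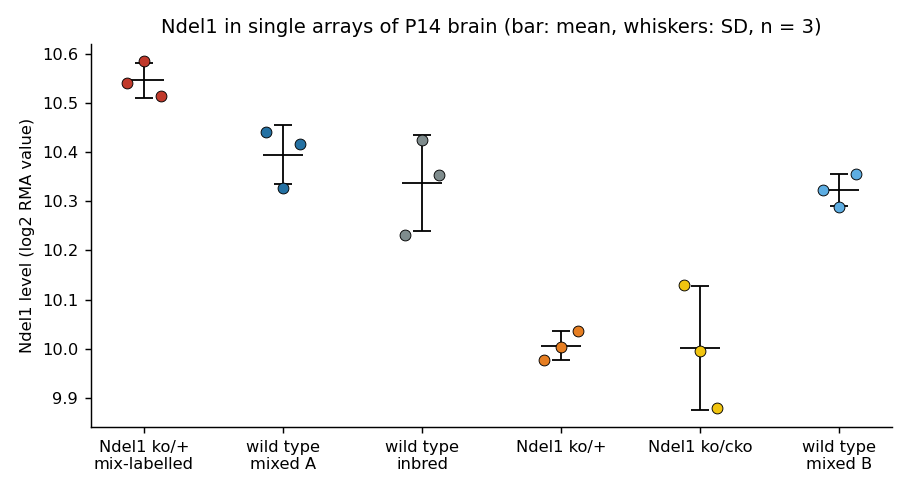
Level of Ndel1 (log2 RMA value, vertical axis) in single arrays of 6 groups of P14 brain. Points are arrays, the horizontal bar is the group mean and the whiskers are the SD of 3 arrays. The mix-labelled arrays, between 10.51 and 10.58, lie above all others, and both other Ndel1 mutants lie lowest.

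The promoter window of Ndel1, 250 bases before to 50 after the annotated start, is shown because it is the targeted gene. It lies at chr11:68853086-68853385 of GRCm38.p6 on the minus strand (RefSeq), and capitals mark TATAAA and GGGCGG on either strand. CCAAT was searched on both strands too and was not found in this window.
Ndel1: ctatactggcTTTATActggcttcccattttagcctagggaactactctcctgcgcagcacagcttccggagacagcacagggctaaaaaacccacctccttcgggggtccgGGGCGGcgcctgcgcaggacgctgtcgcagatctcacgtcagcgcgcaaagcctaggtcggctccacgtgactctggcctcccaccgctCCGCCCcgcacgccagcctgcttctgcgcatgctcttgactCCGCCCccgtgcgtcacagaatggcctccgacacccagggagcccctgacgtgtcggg

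Across all genes, 119 of 12296 genes tested differed between the mix-labelled and the mixed A libraries at an adjusted p under 0.05 (limma with Benjamini-Hochberg adjustment), which is 0.968%. The 30 genes that rose were 0.244% of those tested, and the 89 that fell were 0.724%. With quantile normalization over all 78 arrays 55 rose and 85 fell, and 11 rose without mix-labelled replicate 2 or 3 and 14 without mixed A replicate 2. Arrays of the groups did not overlap for 118 of the 119 (Ppp1r16b was the exception), while over all genes tested this held for 24.1%. The size of the called differences ran from 0.25 to 4.06 with a median of 0.75, and 32 reached 1. The calls depended on single libraries: there were 54 without mix-labelled replicate 2, 52 without mix-labelled replicate 3 and 61 without mixed A replicate 2. Leaving out mixed A replicate 1, the library with low P2ry12, left 106 calls, of which 78 were among the 119. A set of 42 genes was called in every one of the 6 runs that left out a library, and no called gene changed sign.

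Among 29 tested genes of the list of LIS1, NDEL1 and their partners, 1 fell and none rose. Over all genes tested 0.724% fell and 0.244% rose. The mean was lower in 20 of the 29, beside 57.8% over all genes tested. An unadjusted p under 0.05 (limma) was found for 5, beside 9.43%. The median difference was -0.05, against -0.02 over all genes tested. The member that fell was Dcx, the gene of doublecortin, which binds microtubules in migrating neurons. Dcx was at 8.156, 7.956 and 8.005 in the mix-labelled arrays and at 8.47, 8.43 and 8.51 in mixed A. The groups did not overlap, as for 24.1% of all genes tested, and the difference was -0.43 ± 0.10 (limma, adjusted p = 0.0229). Dcx kept its sign but was not called in 8 of 17 alternative settings. It was not among the 42 genes called in every run that left out a library. In the inbred wild type Dcx was at 8.03, 8.29 and 8.17, which overlaps with the mix-labelled arrays. Pafah1b1 was at 10.54, 10.85 and 10.72 in the mix-labelled arrays and at 10.86, 10.81 and 10.88 in mixed A (difference -0.14 ± 0.08, limma adjusted p = 0.627). Ywhae, which encodes 14-3-3 epsilon, a protein that protects phosphorylated NDEL1, differed by -0.01 ± 0.04 (limma, adjusted p = 0.959). Pafah1b3, a catalytic subunit of the enzyme that LIS1 also belongs to, was at 8.01, 7.96 and 7.87 against 8.29, 8.49 and 8.52 in mixed A, without overlap, and missed the threshold (limma, adjusted p = 0.0702). Nde1, the paralogue of Ndel1, differed by -0.03 ± 0.12.

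Of 20 tested genes of dynein and dynactin, the motor and its activating complex, none was called, beside 0.968% over all genes tested. An unadjusted p under 0.05 (limma) was found for 1, beside 9.43% over all genes tested. This was Dctn5, a subunit of the pointed end of dynactin, at 8.50, 8.68 and 8.82 in the mix-labelled arrays and at 10.70, 10.74 and 8.53 in mixed A. Its groups overlap through mixed A replicate 3, and the difference of -1.33 ± 0.45 did not pass (limma, adjusted p = 0.220). All 3 inbred arrays, at 8.64, 8.52 and 8.67, lay at the low level.

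Among the genes that rose, Xaf1 showed the largest difference among those named by the rule. It encodes an interferon-inducible partner of the apoptosis inhibitor XIAP. Xaf1 was at 6.05, 6.50 and 6.42 in the mix-labelled arrays and at 4.41, 4.11 and 4.23 in mixed A. The log2 difference was 2.07 ± 0.24 (limma, adjusted p = 2.28e-05). The mixed A arrays lay under 5.25, the value a group mean had to reach in at least 1 P14 group for a gene to be tested, and where 1 of the groups is that dim no fold is given. The inbred arrays, at 5.33, 6.20 and 5.89, overlapped with the mix-labelled arrays and lay above all mixed A arrays.

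Pi4kb, a phosphatidylinositol 4-kinase of the Golgi, was at 6.25, 6.50 and 6.17 in the mix-labelled and at 4.81, 4.62 and 4.77 in mixed A arrays. Pla2g4e, a cytosolic phospholipase A2, was at 8.17, 8.06 and 8.17 against 7.38, 6.16 and 6.34. Gdpd3, a glycerophosphodiester phosphodiesterase, was at 8.37, 8.41 and 8.62 against 6.86, 7.61 and 7.37. The mean differences of these 3 genes were 1.57, 1.50 and 1.18. Their arrays do not overlap between the groups, which the rule for named genes required. Fxyd2, a regulator of the sodium pump, rose by 0.89, and Slco1a4, a transporter of organic anions in brain endothelium, by 0.57. Slco1a4 was the 1 member called of 16 tested in the endothelium and mural cell list, where 12 had lower means. Over all genes tested 0.244% rose and 57.8% had a lower mean.

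Glo1 encodes glyoxalase 1, which detoxifies methylglyoxal. It was at 10.75, 10.77 and 10.69 in the mix-labelled arrays and at 10.47, 9.95 and 9.89 in mixed A, a rise of 0.63 ± 0.14 (limma, adjusted p = 0.0194). The other 3 Glo1 probe sets over the filter rose as well, by 0.76, 0.74 and 1.36. Pfn1, which encodes the actin monomer-binding protein profilin 1, had 10.61, 10.63 and 10.68 in the mix-labelled arrays and 9.96, 10.00 and 9.74 in mixed A. Its difference was 0.74 ± 0.07 (limma, adjusted p = 2.45e-06).

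Other named genes that rose were Wwox, a WW domain oxidoreductase, by 1.00, Galt, an enzyme of galactose breakdown, by 0.80, and Me3, the mitochondrial malic enzyme, by 0.76. Ccr6, a chemokine receptor, rose by 0.82 and Prss56, a serine protease, by 0.79, both at low levels under 5.8 in all 6 arrays. Sdc4 (syndecan-4, a heparan sulfate proteoglycan), Gas7 (a protein of neurite outgrowth) and Spock1 (the proteoglycan testican-1) rose by 1.79, 1.70 and 0.90 in their brightest probe set. No further probe set over the filter of these 3 genes passed the test. The 1 further probe set differed by -0.79 in Sdc4 and by -0.00 in Spock1. The 3 further ones of Gas7 were all lower, at -0.40, -0.26 and -0.18.

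The largest difference of all belonged to Tmem267, which encodes a transmembrane protein. It was at 4.18, 4.18 and 4.09 in the mix-labelled arrays and at 7.62, 8.39 and 8.63 in mixed A. The log2 difference was -4.06 ± 0.33 (limma, adjusted p = 1.14e-07). The mix-labelled arrays lay under the filter value of 5.25, which the gene passed through other groups. The inbred arrays, at 3.85, 3.78 and 3.98, were dim too, and so were those of the other Ndel1 ko/+ group at 4.55, 4.10 and 4.63. Mixed B split into 4.40, 4.48 and 6.12. Both Lis1 mutants of P14 were at the high level, with means of 7.53 ± 0.43 in Lis1 ko/cko and 7.69 ± 0.51 in Lis1 ko/+ (SD, n = 3 each).

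Tmem267 lay beside other genes that fell. Among the tested genes in the order of the annotation, 4833420G17Rik, Tmem267 and Ccl28 follow each other, and all 3 were lower in the mix-labelled arrays. The transcript 4833420G17Rik was at 7.71, 7.70 and 7.59 against 9.21, 9.34 and 9.56 in mixed A. Ccl28, a chemokine of mucosal tissues, was at 4.08, 4.45 and 4.47 against 5.64, 6.08 and 6.11. The log2 differences were -1.70 ± 0.21 and -1.61 ± 0.19 (limma, adjusted p = 3.59e-05 and 1.97e-05). A second Ccl28 probe set over the filter differed by 0.04. In the inbred arrays 4833420G17Rik was at 7.27, 7.88 and 7.61 and Ccl28 at 4.35, 4.35 and 4.37, as low as in the mix-labelled arrays.

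The promoter windows of these 3 neighbours are shown because the genes moved together. They lie at chr13:119462509-119462808, chr13:119487836-119488135 (the first of 2 windows of Tmem267) and chr13:119623569-119623868 of GRCm38.p6, all on the plus strand (RefSeq). Capitals mark GGGCGG or its reverse complement CCGCCC, which occurs once in each.
4833420G17Rik: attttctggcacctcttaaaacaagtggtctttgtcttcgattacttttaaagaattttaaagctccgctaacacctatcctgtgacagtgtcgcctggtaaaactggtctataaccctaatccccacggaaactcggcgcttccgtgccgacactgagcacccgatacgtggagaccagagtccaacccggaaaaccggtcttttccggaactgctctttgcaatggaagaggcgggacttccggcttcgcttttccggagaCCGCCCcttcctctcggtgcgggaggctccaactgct
Tmem267: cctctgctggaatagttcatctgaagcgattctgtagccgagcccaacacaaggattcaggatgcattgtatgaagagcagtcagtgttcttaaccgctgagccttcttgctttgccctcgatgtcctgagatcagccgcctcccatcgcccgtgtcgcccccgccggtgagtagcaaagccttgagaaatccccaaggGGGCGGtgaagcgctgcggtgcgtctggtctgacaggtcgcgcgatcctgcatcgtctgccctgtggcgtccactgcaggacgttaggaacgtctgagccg
Ccl28: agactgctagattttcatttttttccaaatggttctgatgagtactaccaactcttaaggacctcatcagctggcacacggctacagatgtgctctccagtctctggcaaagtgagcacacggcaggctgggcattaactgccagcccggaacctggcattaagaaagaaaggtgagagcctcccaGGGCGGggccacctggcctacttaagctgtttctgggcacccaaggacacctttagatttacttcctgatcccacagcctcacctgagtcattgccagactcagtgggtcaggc
Of all 32851 windows of this length, 35.7% hold GGGCGG on either strand. TATAAA (13.6% of all windows) and CCAAT (37.4%) were searched on both strands as well and were not found in these 3 windows, and no motifs overlapped.

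The further runs of neighbouring called genes were Slc38a9, Plpp1 and Mtrex, then Tmod3 and Tmod2, and then Lars2 and Limd1, which makes 10 of the 119 genes that stand next to another called gene. In the run of Slc38a9 the directions differed: Slc38a9, a lysosomal amino acid transporter, rose by 0.53, while Plpp1, a lipid phosphatase, fell by 0.40 and Mtrex, an RNA helicase of the nuclear exosome, by 0.47. Tmod2 and Tmod3, both tropomodulins that cap actin filaments, fell by 0.43 and 0.49. Lars2, the mitochondrial leucyl-tRNA synthetase, was at 6.07, 5.96 and 6.31 against 7.72, 7.24 and 7.08 in mixed A, and Limd1, a LIM domain protein, fell by 0.94.

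Around Ndel1 itself, 1 of the 50 nearest tested genes (25 on either side) was called, which is 2% beside 0.968% over all genes. It was Gas7, 9 tested genes before Ndel1, and the median difference of the 50 was -0.03. Pfn1 stands 64 and Xaf1 85 tested genes after Ndel1. On the whole chromosome of Ndel1, 14 of 1009 tested genes were called, or 1.39%.

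Efhd2, a calcium-binding protein of the actin cytoskeleton, was at 8.94, 8.69 and 8.81 in the mix-labelled arrays and at 11.33, 11.38 and 10.80 in mixed A (5.12-fold lower, limma adjusted p = 1.97e-05). A second probe set of Efhd2 differed by -0.14 and was not called. Creg2, a secreted glycoprotein found mostly in brain, was at 6.65, 7.04 and 6.86 against 8.71, 8.98 and 8.95. Olfml3, an olfactomedin-like secreted protein, was at 5.64, 5.91 and 5.99 against 7.31, 7.76 and 8.02. The differences of both genes were -2.03 ± 0.25 and -1.85 ± 0.26 (limma, adjusted p = 3.59e-05 and 0.000334).

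Pcdhb9 belongs to the clustered beta protocadherins, adhesion proteins of neurons whose genes are close copies of each other, so its value is uncertain. It was at 4.46, 4.50 and 4.52 in the mix-labelled arrays and at 6.60, 6.62 and 7.84 in mixed A. Myo7a, an unconventional myosin of sensory hair cells, was at 4.56, 4.86 and 4.90 against 7.38, 7.09 and 6.11. The mix-labelled arrays of both genes lay in a narrow low range, and the mixed A arrays were spread over more than 1 log2 unit. B3galt1, a galactosyltransferase, fell by 1.51, and 2 of its 4 further probe sets over the filter were called lower, by 1.19 and 0.84. Krt12, a keratin of the cornea, fell by 1.68, and by 1.51 in its second probe set. Esco1, an acetyltransferase of cohesin, fell by 1.74 in its brightest probe set, while its second probe set differed by 0.39 and was not called. Coch, which encodes cochlin of the extracellular matrix, fell by 1.26, and Cnmd, chondromodulin, by 1.27. Cnmd was dim, with 5.45 as its highest P14 group mean. Lypd6b, a LY6 family member, fell by 1.18, and Atpsckmt, a lysine methyltransferase of the ATP synthase c subunit, by 1.13.

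Over the 30 genes of the largest changes, 12 had further probe sets over the filter, 20 in number. Of these, 13 had the sign of the brightest probe set, and 6 were called with that sign.

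**Figure D2:**
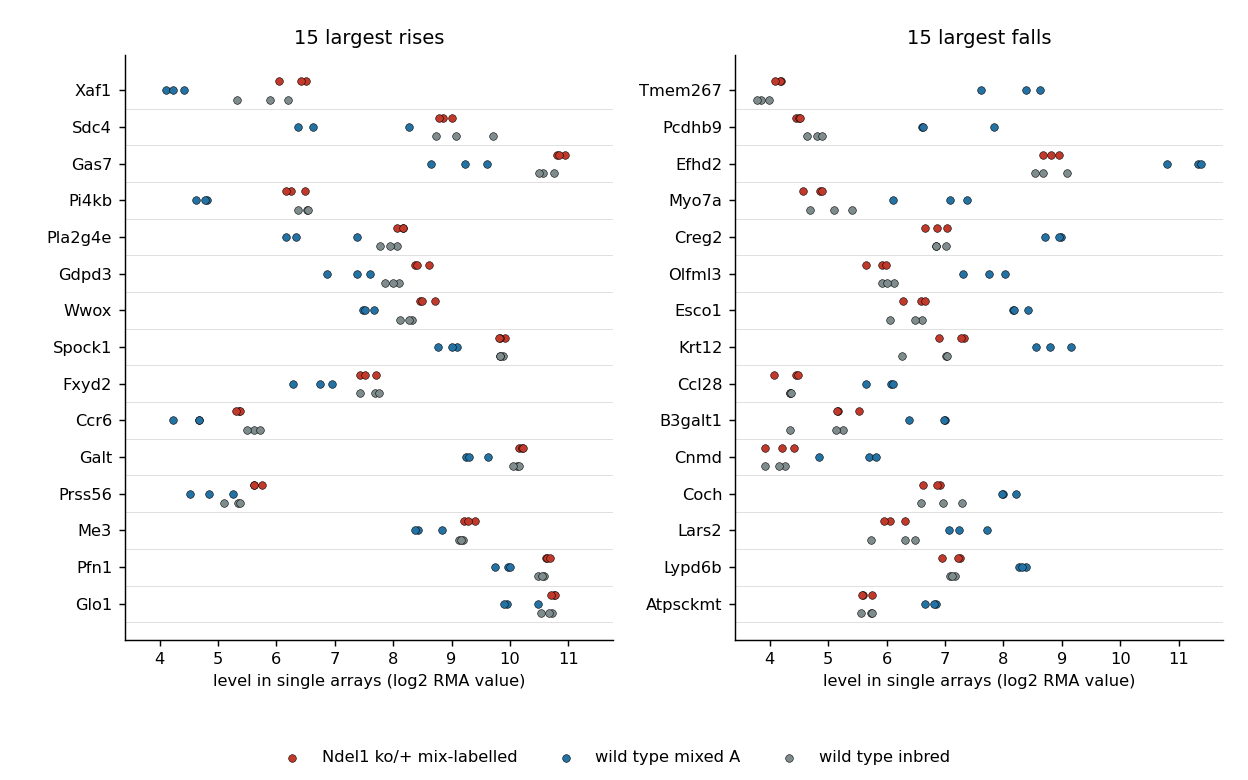
Levels (log2 RMA value, horizontal axis) of the 15 genes with the largest rises and the 15 with the largest falls in mix-labelled Ndel1 ko/+ against mixed A, in single arrays of the mix-labelled, mixed A and inbred groups. The mix-labelled and mixed A arrays are separated in each gene because the genes were chosen that way. For Tmem267 the inbred arrays are as dim as the mix-labelled ones.

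Of 17 tested genes of newborn and migrating neurons 6 fell, none rose and 11 did not pass the test. All 17 had a lower mean in the mix-labelled libraries, and their median difference was -0.27. Over all genes tested 57.8% had a lower mean, the median was -0.02 and 0.724% fell. Besides Dcx, the members that fell were Cd24a (a surface glycoprotein of young neurons), Dpysl3 and Dpysl5 (collapsin response mediator proteins), Gap43 (a growth cone protein) and Nrep (a neuronal protein of regeneration). Cd24a was at 10.06, 9.89 and 9.75 in the mix-labelled arrays and at 10.33, 10.43 and 10.50 in mixed A. Gap43 was at 11.56, 11.55 and 11.43 against 11.85, 11.84 and 11.84. Neither gene had overlapping arrays, and the differences were -0.52 ± 0.11 and -0.33 ± 0.06 (limma, adjusted p = 0.0196 and 0.00382). Dpysl3 fell by 0.52, Dpysl5 by 0.48 and Nrep by 0.34. Of members that were not called, Tubb3 differed by -0.29, Ncam1 by -0.27, Sox11 by -0.12 and Sox4 by -0.04.

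This count rested on single libraries. The 6 calls became 1 without mix-labelled replicate 2, 1 without mix-labelled replicate 3, 3 without mixed A replicate 1 and 2 without mixed A replicate 2. The median of the list stayed between -0.32 and -0.23 in the 6 runs. Against the inbred wild type the median of the same 17 genes was -0.12, and none was called. In tissue samples, fewer cells of a type and less RNA per cell cannot be told apart.

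Cell cycle genes had a median of -0.31 over 16 tested members, with 14 lower and 2 higher means, and 1 fell. Over all genes tested 57.8% had a lower mean and 0.724% fell. The member that fell was Ube2c, a ubiquitin-conjugating enzyme of mitosis, at 5.68, 5.66 and 5.55 against 6.31, 6.30 and 6.20 (difference -0.64 ± 0.14, limma adjusted p = 0.0162). It was not called without mix-labelled replicate 2 or 3 or without mixed A replicate 1 or 2. Mki67 and Top2a, markers of dividing cells, differed by -0.77 and -0.64 and did not pass (limma, adjusted p = 0.143 and 0.0901). Most members were dim, and under the stricter filter the list's median was -0.05. Against the inbred wild type the median of the 16 members was -0.10, and none was called. The cerebellum list had a median of -0.25 against mixed A over 10 tested genes, and of 0.02 against the inbred wild type, with none called.

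All 15 tested ribosomal protein genes had lower means in the mix-labelled libraries, and 2 fell, beside 57.8% with lower means and 0.724% that fell over all genes tested. Rplp0, of the ribosomal stalk, was at 11.90, 11.97 and 11.93 against 12.20, 12.20 and 12.17 in mixed A (difference -0.25 ± 0.05, limma adjusted p = 0.00662). Rps6, of the small subunit, fell by 0.86 in a probe set of low level. The 2 calls became 1 without mix-labelled replicate 2, mixed A replicate 1 or mixed A replicate 3. The median was -0.10, and these genes have many near-identical copies in the genome. The 19 sterol biosynthesis genes were lower in every case as well, with a median of -0.15 and none called, beside the same 57.8%. Dhcr7, the last enzyme of cholesterol synthesis, had the largest of these differences at -0.36 (limma, adjusted p = 0.0824). Meningeal and fibroblast genes were lower in 13 of 14, beside the same 57.8%, with a median of -0.20, against -0.02 over all genes, and none called. Against the inbred wild type the medians were -0.02 for the ribosomal protein, 0.07 for the sterol and 0.05 for the meningeal genes. No member was called there, and the median over all genes tested was 0.06.

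Glial and vascular lists held few calls, and over all genes tested 42.2% had a higher mean and 0.968% were called. Of 18 tested myelin and oligodendrocyte genes 14 had higher means, with a median of 0.09 and none called. Mal, a proteolipid of myelin, came nearest with 0.65 ± 0.16 (limma, adjusted p = 0.0622). Among 18 astrocyte genes Ntsr2, a neurotensin receptor, rose by 0.31 ± 0.07 (limma, adjusted p = 0.0194). Among 14 microglia genes Fcrls, an Fc receptor-like protein of resident microglia, fell. It was at 6.88, 7.20 and 7.40 in the mix-labelled arrays and at 7.67, 8.55 and 8.41 in mixed A, without overlap (difference -1.05 ± 0.19, limma adjusted p = 0.00355). The mean of the microglia list ran from 8.09 to 8.26 in the mix-labelled arrays and from 7.92 to 8.52 in mixed A, so it overlapped. Glucocorticoid-responsive genes were higher in 13 of 14 with a median of 0.14, and none was called. Synaptic vesicle, glutamate synapse, GABAergic and oxidative phosphorylation genes had medians between 0.00 and 0.03 and no calls.

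**Figure D3:**
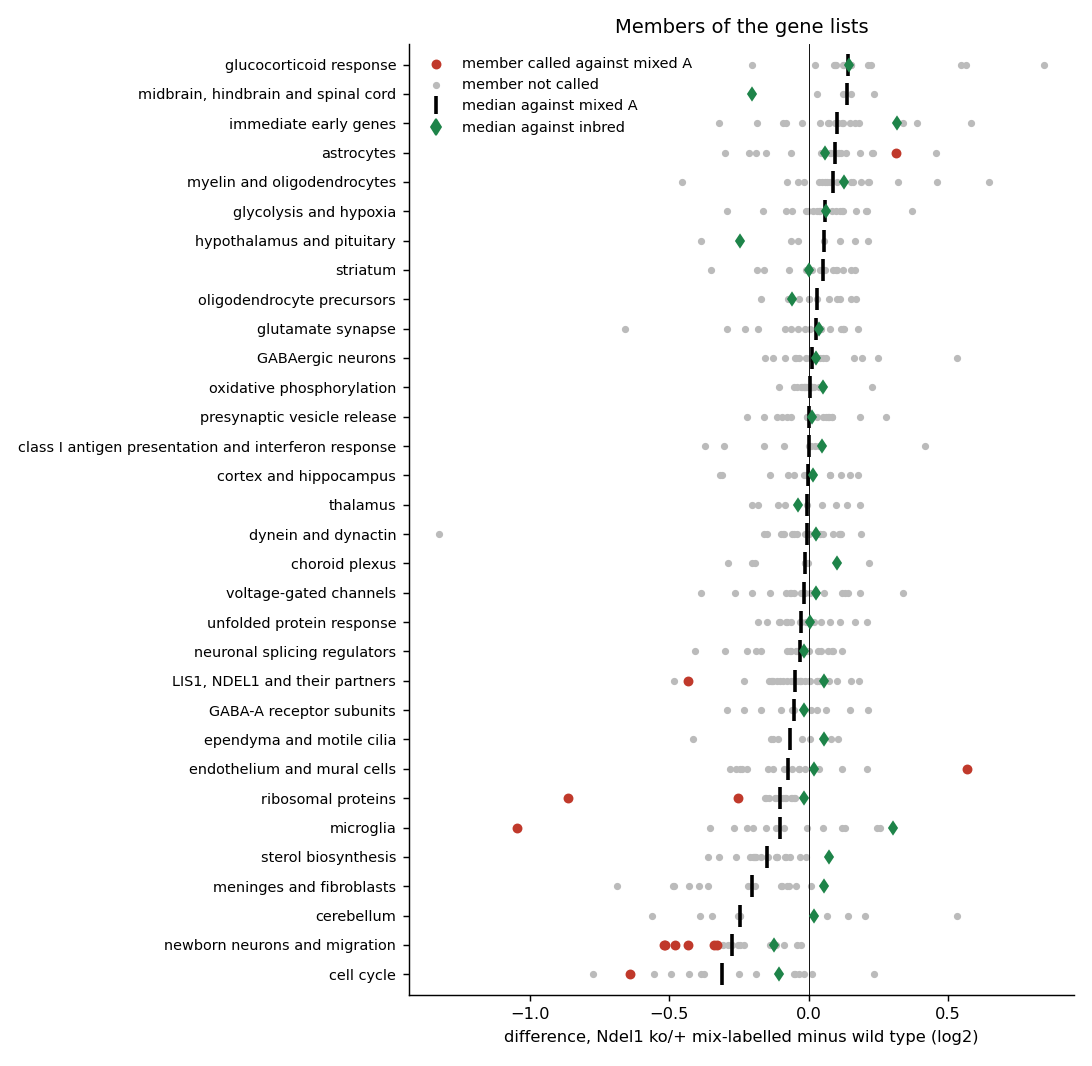
Difference of each tested member (log2, horizontal axis) between mix-labelled Ndel1 ko/+ and mixed A for the lists with at least 4 tested genes. Red points are members called at adjusted p under 0.05, black bars are list medians against mixed A and green diamonds are medians of the same genes against the inbred wild type. The newborn neuron list holds 6 red points, all lower.

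Set against the inbred wild type, the same mix-labelled libraries showed no called gene (0 of 12296, 0%, limma; 1068 genes, or 8.69%, had an unadjusted p under 0.05, and the smallest adjusted p was 0.234). The smallest p belonged to Hnrnpu, an RNA-binding nuclear protein, at -0.55 ± 0.10. The largest difference was that of Mid1, an X-linked ubiquitin ligase, at 2.44 ± 0.60 (limma, adjusted p = 0.377). The count was 18 when the fit held only the 2 groups compared. The difference between both comparisons is that of the 2 wild types, for which 517 genes (4.2%) were called between mixed A and inbred.

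The 119 genes were chosen by their distance from mixed A, and both comparisons share the mix-labelled arrays, so their values are given side by side as a description. The median absolute difference of the 119 genes was 0.75 from mixed A, by that choice, and 0.11 from the inbred wild type. The largest departure from inbred was 0.58, in Capn3, a calcium-dependent protease, at 5.76, 6.07 and 6.06 in the mix-labelled arrays against 5.29, 5.28 and 5.59 in inbred and 6.62, 6.99 and 6.97 in mixed A.

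**Figure D4:**
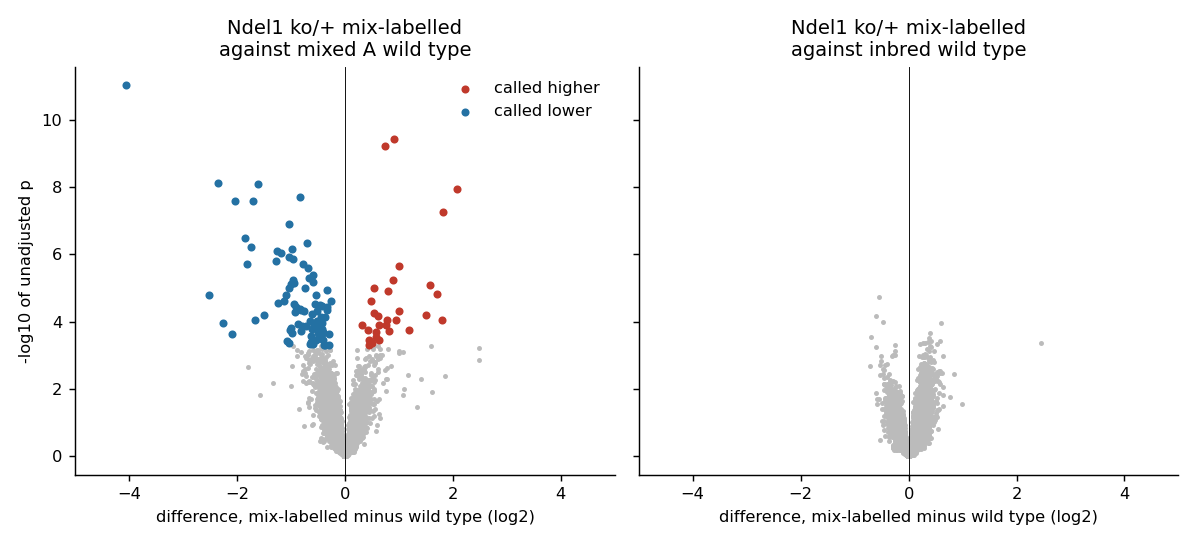
Log2 difference (horizontal axis) and -log10 of the unadjusted p (vertical axis) of all 12296 genes tested, for mix-labelled Ndel1 ko/+ against mixed A on the left and against the inbred wild type on the right. Coloured points are called at adjusted p under 0.05, 119 on the left and 0 on the right, and the point at the far left is Tmem267.

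Over all genes tested, the root mean square difference of group means from the mix-labelled group was 0.153 for the inbred wild type and 0.195 for mixed A. It was 0.177 for Lis1 ko/+, 0.466 for mixed B and 0.448 for the other Ndel1 ko/+ group. Distances between single arrays are larger than those between means and are a separate measure. Within the mix-labelled group they were 0.151 to 0.171. From mix-labelled arrays they were 0.167 to 0.260 to inbred arrays (median 0.218) and 0.225 to 0.259 to mixed A arrays (median 0.251). Against mixed B, 6467 genes were called (52.6%), and against the other Ndel1 ko/+ group 6341 (51.6%). Both Ndel1 ko/+ labels name the same genotype and age. Distances of this size also lay between wild types: the group mean of mixed B was 0.457 from mixed A and 0.444 from inbred. So they are not particular to the mix-labelled group, and their cause was not tested.

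Finally, the difference of the mix-labelled group from mixed A was compared with that of the other Ndel1 ko/+ group from mixed B. The other Ndel1 ko/+ group against mixed B gave no called gene (0 of 12296, limma; 313 genes, or 2.55%, at an unadjusted p under 0.05; 4 calls without mixed B replicate 2), and Ndel1 differed there by -0.32 ± 0.06 (limma, unadjusted p = 2.79e-05, adjusted p = 0.343). The test of the difference between both called 19 genes (0.155%), 6 more positive (0.0488%) and 13 more negative (0.106%) in the mix-labelled comparison. The 19 became 6, 8 and 10 without mix-labelled replicates 1, 2 and 3, 12 without mixed B replicate 1, and 10, 10 and 12 without replicates 1, 2 and 3 of the other Ndel1 ko/+ group. Ndel1 was among them, at +0.15 against mixed A and -0.32 against mixed B (difference 0.47 ± 0.09, limma adjusted p = 0.0199). The call for Ndel1 was lost without mix-labelled replicate 1 or 2, mixed A replicate 2, mixed B replicate 1 or the other Ndel1 ko/+ replicate 1 or 2, with adjusted p between 0.0524 and 0.0818. Pfn1 differed by 0.74 against mixed A and by 0.00 in the other Ndel1 ko/+ group, where its levels were 10.72, 10.70 and 10.70 against 10.80, 10.72 and 10.59 in mixed B. Creg2 differed by -2.03 and 0.02, and Pi4kb by 1.57 and -0.33. Fcrls, lower by 1.05 in the mix-labelled arrays, was at 7.86, 7.43 and 7.68 in the other Ndel1 ko/+ group against 7.16, 7.25 and 7.10 in mixed B.

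**Figure D5:**
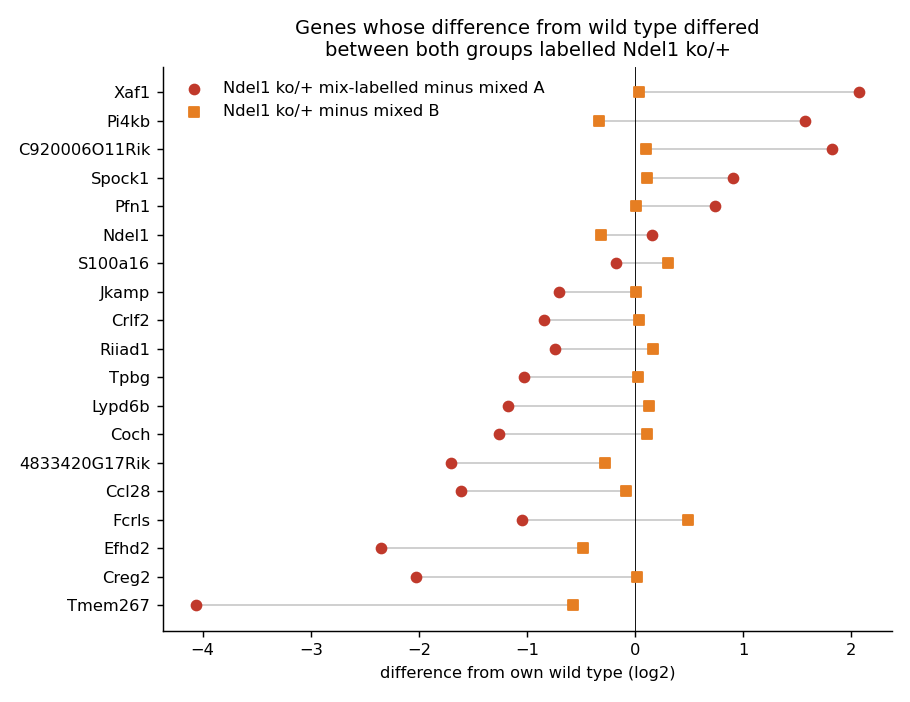
Log2 difference from the own wild type (horizontal axis) for the 19 genes whose difference was itself called between mix-labelled Ndel1 ko/+ (red circles, against mixed A) and the other Ndel1 ko/+ group (orange squares, against mixed B). Most squares lie near 0, and Ndel1 has its circle at 0.15 and its square at -0.32.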

How the data were processed

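Brain RNA was hybridised to 78 Affymetrix arrays. The labels' protocols give Trizol extraction and biotin labelling by in vitro transcription. The authors deposited log2 values per probe set, summarized by RMA per the submitters' processing notes (version not given in the sources used here). Background correction and quantile normalization are parts of RMA, so a biological shift shared by most genes cannot be seen. A small offset remained in the deposited values. The median difference from mixed A was -0.02, and 0.003 after quantile normalization over all 78 arrays. What this offset adds to the shares of lower means was not tested.

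Of 45101 probe sets, 34945 name 1 gene, 932 several and 9160 none in an annotation that can be old. Symbols were updated through RefSeq (18031 of 18193 genes matched). The brightest probe set, by its mean in all 78 arrays, stood for its gene, and 12296 genes with a P14 group mean of at least 5.25, the overall median, were tested.

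Models with a mean for each of the 8 P14 groups were fitted to all 24 P14 arrays with limma 3.58.1 (R 4.3.3, with data.table in version 1.17.8), with moderated variances and a trend. Errors of differences are moderated SEs. Tests are two-sided, with Benjamini-Hochberg adjustment over all genes tested and a threshold of 0.05. The labels give no batch. Nothing says that replicates came from separate litters, so p-values measure the spread between these samples. The procedure was tested on simulated data. The rule for named genes took the 15 largest rises and falls among called genes whose arrays do not overlap, up to 4 called members of each list, the targeted genes, the LIS1 and dynein lists, and up to 6 genes of the difference between both groups labelled Ndel1 ko/+, passing over unnamed genes. Capn3, Mid1, Hnrnpu, Gap43, Nrep, further list members, runs of neighbours and Riken genes were named after their values were seen. The samples, the 34 gene lists and the tests were chosen with earlier results of these data known. Alternatives changed the filter, the probe set, the arrays fitted, the normalization, the variance prior, the control, the call rule, a replicate block and each array left out.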

Additional observations from a re-analysis of the deposited data

Results flagged for a closer look

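In 19 genes, the difference of mix-labelled Ndel1 ko/+ from mixed A and that of the other Ndel1 ko/+ group from mixed B differed by the test of the difference itself (limma, adjusted p under 0.05), although both groups carry the same genotype in their labels. The values below are the first difference minus the second, on the log2 scale. They were positive for Xaf1 at 2.04, Pi4kb at 1.90, C920006O11Rik at 1.72, Spock1 at 0.80, Pfn1 at 0.74 and Ndel1 at 0.47. They were negative for Tmem267 at -3.49, Creg2 at -2.05, Efhd2 at -1.87, Fcrls at -1.53, Ccl28 at -1.53, 4833420G17Rik at -1.43, Coch at -1.37 and Lypd6b at -1.30. Smaller negative values were those of Tpbg at -1.06, Riiad1 at -0.91, Crlf2 at -0.87, Jkamp at -0.71 and S100a16 at -0.47. S100a16, a calcium-binding protein, was at -0.17 against mixed A and at 0.30 in the other Ndel1 ko/+ group against mixed B, and neither difference was called.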

How the results depend on the processing

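The 119 calls against mixed A were 369 with only the compared groups in the fit, 225 over every probe set, 32 with a change of at least 1 log2 unit, 4 against the mean of mixed A and inbred, 6467 with mixed B and 0 with inbred as control, and 52 to 106 without single arrays. Quantile normalization over all 78 arrays gave 140 calls with 39.3% higher, against 25.2% in the reported fit. The 0 calls against inbred were 18 with only the compared groups and 3 with that normalization. Calls against mixed B were 445 with a change of at least 1 and 11083 over every probe set. Calls against the other Ndel1 ko/+ group were 352 and 10747 under the same settings. The 19 calls of the difference between both groups labelled Ndel1 ko/+ were 33 with only the compared groups, 10 without the variance trend, 12 with a change of at least 1 and 6 to 21 without single arrays (6 without mix-labelled replicate 1). The Ndel1 difference there, 0.47, kept its size without the trend but was not called, and ran from 0.43 to 0.49 without single arrays. Ndel1 ko/+ against mixed B had 0 to 4 calls without single arrays (4 without mixed B replicate 2). The cause of these changes was not tested.

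With mixed B as control, where 52.6% of genes were called, Ndel1 was called at 0.22. The sign turned, with a call in the opposite direction, for Pafah1b1 (0.23, limma adjusted p = 0.0216), Pi4kb (-1.36, limma adjusted p = 0.00025) and Rplp0 (0.17, limma adjusted p = 0.00527), and without a call for Ywhae (0.052), Sdc4 (-0.0094), Pfn1 (-0.059), Cnmd (0.0047), Ube2c (0.034) and Dpysl5 (0.093). With inbred it turned for Pafah1b1 (0.062), Ywhae (0.0039), Sdc4 (-0.29), Pi4kb (-0.18), Fxyd2 (-0.070), Ccr6 (-0.26), Tmem267 (0.28), Efhd2 (0.046), Esco1 (0.12), Krt12 (0.39), B3galt1 (0.37), Cnmd (0.070), Lypd6b (0.018) and Fcrls (0.18). In the second probe set it turned for Sdc4 (-0.79), Gas7 (-0.40), Spock1 (-0.0025, and -0.14 for the difference between both groups labelled Ndel1 ko/+), Esco1 (0.39) and Ccl28 (0.044). Ywhae turned to 0.018 under both normalizations and ran from -0.041 to 0.011 without single arrays, above 0 without mix-labelled replicate 3 or mixed A replicate 1. Same-numbered arrays of the mix-labelled and mixed A groups did not deviate together (correlations -0.15, 0.04 and -0.16). With 3 arrays per group this cannot show whether equal numbers stand for a shared litter or batch. The replicate block gave 129 calls against mixed A.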

Other observations

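No member was called against mixed A among 20 voltage-gated channel genes, 22 neuronal splicing regulators or 17 genes of the unfolded protein response. The same held for 21 genes of glycolysis and hypoxia, and for 14 each of striatum and of cortex and hippocampus. Over all genes tested 0.968% were called, and lists this small cannot be told apart from that share. Immediate early genes, which follow neuronal activity, had a median of 0.10 against mixed A and 0.32 against the inbred wild type, with none of 18 called in either comparison. Egr2, a transcription factor of this list, differed by 0.98 ± 0.42 from inbred (limma, adjusted p = 0.566).

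Some large differences from mixed A missed the threshold. Tmem87a, a Golgi membrane protein, differed by 2.49 ± 0.63 (limma, adjusted p = 0.0606) and Rbm45, an RNA-binding protein, by 2.48 ± 0.68 (limma, adjusted p = 0.0938).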
